A study of Drosophila melanogaster with 3 samples.

Results

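The genes Ten-a and Ten-m encode the teneurins of Drosophila melanogaster, and both were examined for binding of the zinc finger protein az2 in the embryo. They are 2 of 13945 protein-coding genes on the main chromosome arms. All az2 peak summits inside each gene or within 5 kb of it were collected. They made up 12 of the 5786 summits of the peak list thresholded for reproducibility and 63 of the 27145 summits of the relaxed list. The genes were chosen by their peaks in these same data, so the numbers and heights of their peaks are a description, and no test was made on them.

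Chromatin immunoprecipitation followed by sequencing (ChIP-seq) was done on whole embryos 0 to 16 hours old, male and female together, in 1 group of 3 biological replicates. All embryos came from the line named az2-GFP, which stably expresses az2 with GFP at its C-terminal end, and the precipitating antibody recognized GFP. The labels do not say which promoter drives the fusion protein or whether untagged az2 was also present. Untagged embryos and a second protein were not analysed here, so no groups could be compared. The embryos are a mixture of all tissues and of early and late stages, and a peak does not tell in which cells the protein was bound. Where a peak is higher, more cells with the protein bound and more protein bound per cell cannot be told apart.

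Teneurins are large single-pass membrane proteins whose extracellular part carries EGF-like repeats and a large globular region. They bind each other, like to like or across the pair, between neighbouring cells. In the fly, matching levels of teneurins guide olfactory axons to their partner dendrites. At the neuromuscular junction Ten-a acts mainly in the axon and Ten-m mainly in the muscle. Ten-m, also called odd Oz, was first reported as a pair-rule gene of the segmenting embryo.

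Each peak carries a signal value from the authors' peak caller. Since the caller is not given in the sources used here, it is an assumption here that the value is linear, and its range differed between lists. In the pooled relaxed list the signal ran from 37.8 to 4202 with a median of 62.0. The shorter list, here the IDR list, was thresholded by the authors by the irreproducible discovery rate, which compares peak ranks between replicates. Its signals started at 132.869 with a median of 233, and it held 21.3% of the relaxed peaks. The 12 sites had the same signal ranks in the IDR list as in the pooled relaxed list. All other summits of the 2 genes lay below its lowest signal. Membership thus followed pooled signal here and does not measure how well each peak repeats. The relaxed lists of replicates 1, 2 and 3 held 30000, 22372 and 30000 peaks with median signals of 15.4, 30.6 and 25.2. These lists hold no read counts, so depth is unknown, and values are compared here only within a list.

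Ten-a (FBgn0267001) spans chrX:12043698-12335214 on the plus strand of dm6, 291.517 kb, with 11 annotated transcripts from 5 transcription start sites (TSSs). It held 10 IDR summits, numbered here as sites 1 to 10 along the gene, and 9 of them lay in 1 intron. Ten-m (FBgn0004449) spans chr3L:22293044-22407863 on the minus strand, 114.82 kb, with 3 transcripts from 1 TSS. It had 2 IDR summits, and both lay outside the gene. The Ten-m promoter site lay 301 bp upstream of its TSS. The other, called here the Hem/IleRS site, lay 4541 bp beyond the 3′ end of Ten-m and between the promoters of Hem and IleRS.

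Windows of 201 bp centred on the summit are shown for some of the sites. Sites 2 and 8 were the highest in Ten-a, and sites 4 and 10 were others of the same intron. Site 9 fell in a transposable element, and the last 3 lay at promoters. All are given on the plus strand of dm6 from the RefSeq genome. Capitals mark the word CAGTG, which reads CACTG where it lies on the minus strand. Sites 1, 5, 6 and 7 are not shown, and of these site 6 lacks the word. None of the bases shown overlaps an annotated exon, and for site 3 the run stops before the TSS.
Ten-a site 2 (chrX:12202310-12202510): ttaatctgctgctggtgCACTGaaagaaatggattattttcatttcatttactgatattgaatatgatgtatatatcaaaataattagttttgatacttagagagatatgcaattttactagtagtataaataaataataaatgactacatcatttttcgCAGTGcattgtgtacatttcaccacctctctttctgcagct
Ten-a site 8 (chrX:12242459-12242659): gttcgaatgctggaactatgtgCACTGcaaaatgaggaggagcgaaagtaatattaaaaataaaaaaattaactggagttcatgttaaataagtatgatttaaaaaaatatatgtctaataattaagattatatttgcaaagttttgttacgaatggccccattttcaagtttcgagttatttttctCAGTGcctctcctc
Ten-a site 4 (chrX:12217731-12217931): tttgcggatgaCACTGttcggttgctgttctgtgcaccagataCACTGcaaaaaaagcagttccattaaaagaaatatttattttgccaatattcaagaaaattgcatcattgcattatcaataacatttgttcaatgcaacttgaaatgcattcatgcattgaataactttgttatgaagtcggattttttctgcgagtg
Ten-a site 10 (chrX:12259025-12259225): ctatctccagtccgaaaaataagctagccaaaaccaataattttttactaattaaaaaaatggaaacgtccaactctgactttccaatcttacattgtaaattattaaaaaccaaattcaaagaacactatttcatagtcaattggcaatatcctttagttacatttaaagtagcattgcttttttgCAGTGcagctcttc
Ten-a site 9 (chrX:12248992-12249192): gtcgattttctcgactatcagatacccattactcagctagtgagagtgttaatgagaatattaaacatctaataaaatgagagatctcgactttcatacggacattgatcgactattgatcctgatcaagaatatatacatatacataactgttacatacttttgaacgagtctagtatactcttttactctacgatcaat
Ten-a site 3, upstream of the TSS (chrX:12203709-12203797): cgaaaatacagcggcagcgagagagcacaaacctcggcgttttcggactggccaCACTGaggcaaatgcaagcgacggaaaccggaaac
Hem/IleRS site (chr3L:22288403-22288603): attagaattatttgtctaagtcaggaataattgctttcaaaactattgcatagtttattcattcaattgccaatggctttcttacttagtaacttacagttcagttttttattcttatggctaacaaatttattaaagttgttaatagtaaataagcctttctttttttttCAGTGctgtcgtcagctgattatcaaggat
Ten-m promoter site (chr3L:22408064-22408264): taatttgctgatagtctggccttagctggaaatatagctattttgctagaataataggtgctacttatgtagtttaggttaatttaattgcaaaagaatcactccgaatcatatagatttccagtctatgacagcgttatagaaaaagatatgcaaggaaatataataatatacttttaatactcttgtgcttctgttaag

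The 5-letter word was noticed in these windows and chosen after their values were seen. It lay within 100 bp of 8 of the 10 Ten-a summits and of the Hem/IleRS summit, and was missing at sites 6 and 9 and at the Ten-m promoter site. Of the other 5774 IDR windows, 48.5% held it, against 29.6% of 26732 windows of 201 bp spaced evenly over the main arms. Within Ten-a 28.3% of 1450 windows of 201 bp, laid end to end along the gene, held it. Within 50 bp of the summit the word occurred at 3 of the 12 sites, 21.3% of the other IDR windows and 16.1% of the spaced windows. Around the other IDR summits the count per 15 bp was lowest, 170, in the bin centred 7 bp to the right of the summit and highest, 387, in the bin centred at 67 bp. In those other IDR windows the word was thus less frequent at the summit than beside it. At site 2 the word began at −83 and 60 bp from the summit, and at site 8 at −78 and 87 bp. At both it read CACTG to the left and CAGTG to the right. Such a pair, pointing outward along the strands, stood in 3.38% of the other IDR windows and in 0.759% of the spaced windows. Sites 10 and Hem/IleRS carried a single word on the right, beginning at 87 and 71 bp. Site 4 carried 2 on the left, beginning at −89 and −57 bp, in the printed form CACTG. At site 3 the word began at −46 and −12 bp, and the printed run ends on the first base of the latter. The words of sites 1, 5 and 7 within 100 bp began at −55, 33 and 37 bp.

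**Figure D1:**
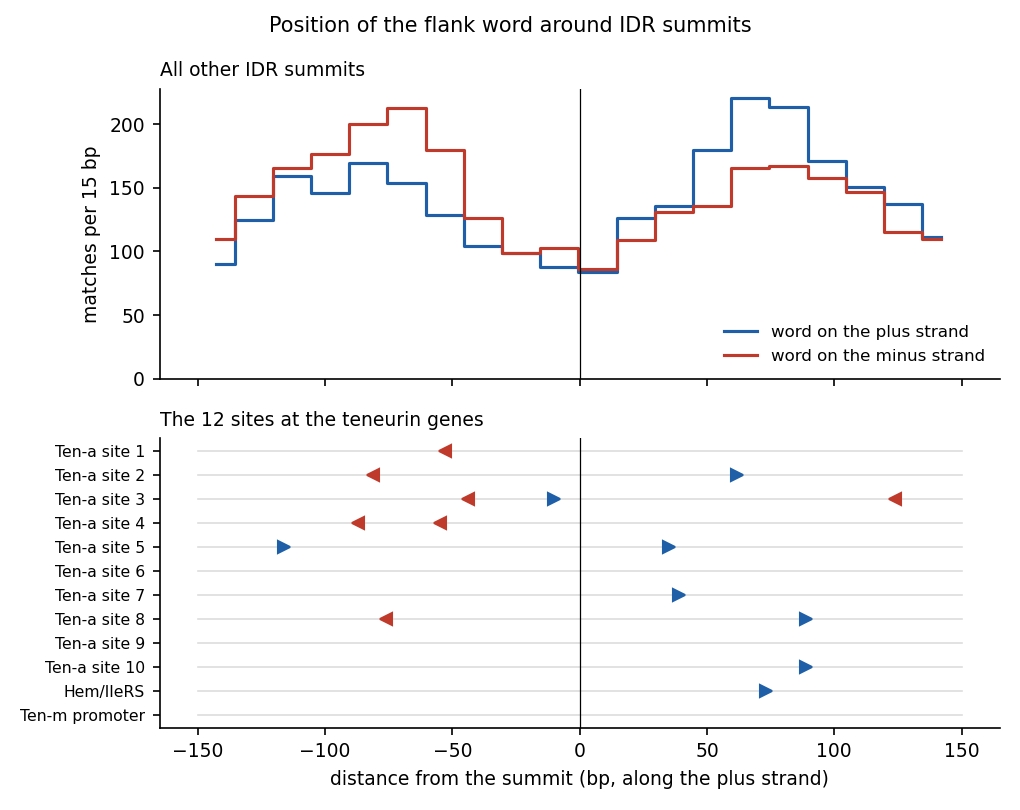
Position of the word CAGTG relative to peak summits (x axis, bp along the plus strand): the upper panel counts matches per 15 bp over the other 5774 IDR summits by strand, and the lower panel marks each match at the 12 sites with an arrowhead pointing along its strand. Around the other summits minus-strand matches were more frequent on the left and plus-strand matches on the right, and sites 2 and 8 of Ten-a carried that arrangement.

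A further set of 10 words, short forms of known binding motifs, were searched on both strands of the same 12 windows. GAGAG, the core bound by GAGA factor, occurred at 6 Ten-a sites, numbers 1, 2, 3, 5, 8 and 9. It stood in 20.9% of all IDR windows and 21.1% of the end-to-end windows within Ten-a. CGATA, the core of the insulator protein BEAF-32, occurred at site 5 alone of the 12, against 27.1% of all IDR windows. AGNNGGCG, a CTCF core, occurred at site 3 only, against 6.48%. The E-box CAGCTG occurred only at the Hem/IleRS site, against 8.42%. The other words had no match in these 12 windows: CANCNCTA (Motif 7, in 10.3% of all IDR windows), AGGGCTG (ZIPIC, 2.44%), CAGGTAG (Zelda, 0.778%), TGCATAC (Su(Hw), 3.63%), TATCGATA (DRE, 3.23%) and GTCACACT (M1BP, 1.92%). A match is only a run of letters, and a missing one says nothing about the factor named.

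The windows were rich in A and T. The GC content of the Ten-a windows ran from 26.4% to 54.2% with a median of 31.6%, below the 40.9% of the whole gene. Site 3, at a TSS, was the highest. The windows near Ten-m had 27.9% and 30.3%, against 46.3% over that gene. The median of all IDR windows was 33.8%, with quartiles of 30.3% and 38.3%.

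**Figure D2:**
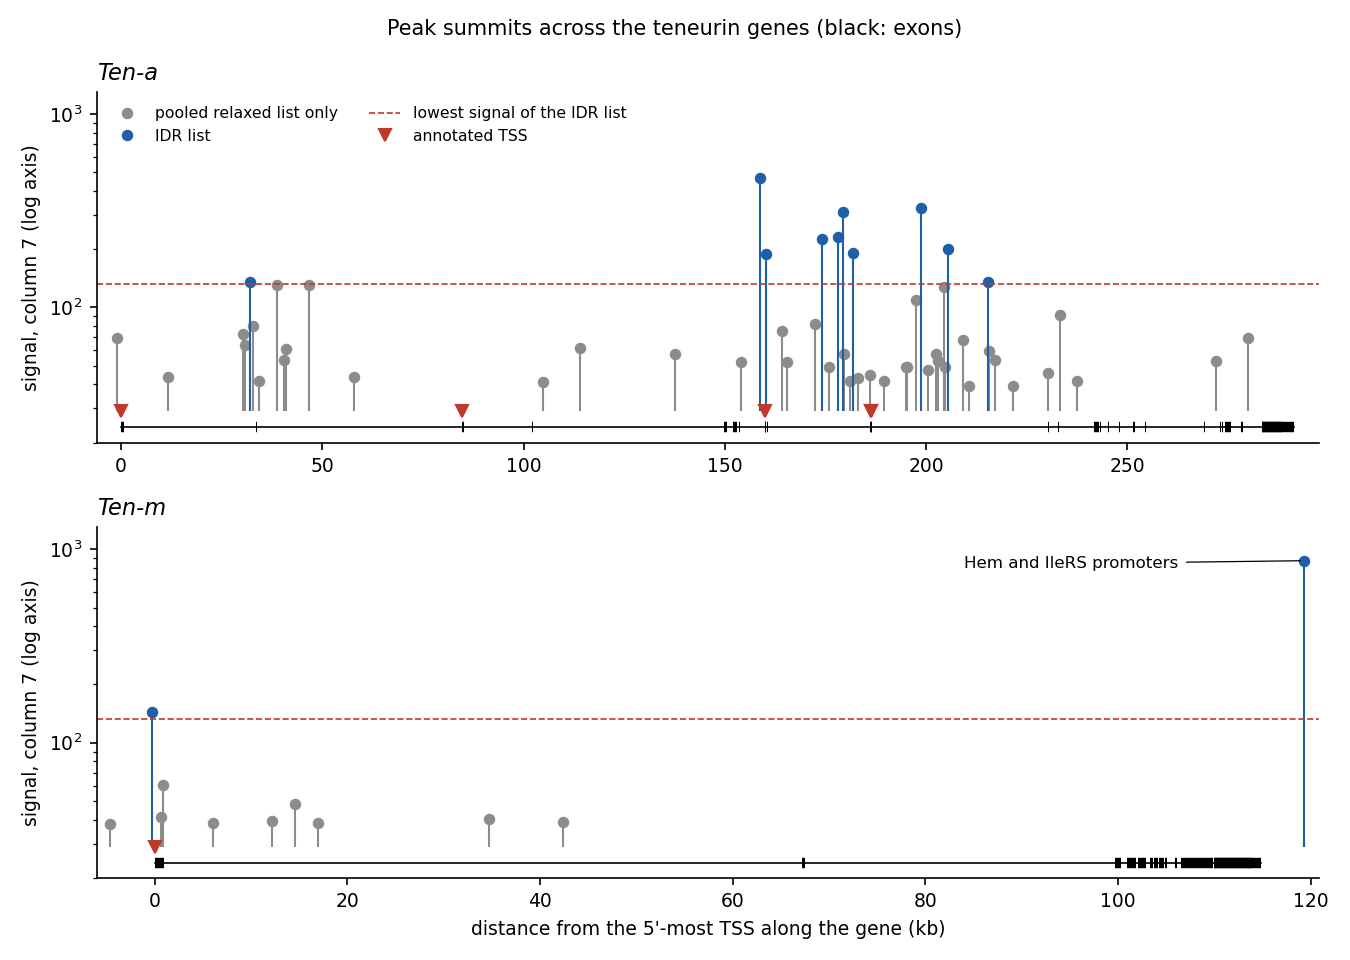
Peak summits across Ten-a and Ten-m by distance from the 5′-most TSS (x axis, kb along the gene) and signal in the pooled list (y axis, log scale): blue, IDR summits; grey, relaxed summits below the IDR list; red triangles, TSSs; black, exons. In Ten-a 9 of the 10 IDR summits lay within 56.715 kb, and in Ten-m both lay outside the gene.

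Ten-a held 10 IDR summits and 52 relaxed summits. Among the 13945 protein-coding genes 53.4% had at least 1 IDR summit in the gene or within 5 kb, and among the 307 genes of at least 50 kb 72.6% did. By length Ten-a was number 7 of these long genes. By number of IDR summits 15 had more, 4 had as many and 287 had fewer. The maximum was 24, at kirre, which encodes an adhesion protein of myoblast fusion. At 3.32 IDR summits per 100 kb it stood below the mean of the main arms (4.32) and of the X (4.44) and above the median long gene (2.40), and 125 of the long genes were denser. Relaxed summits numbered 17.2 per 100 kb, below the 20.3 of the main arms and also below the 17.8 of the median long gene. Among the 10 genes of at least 200 kb, 8 had no IDR summit. These 8 had few peaks of any kind, with 0 to 13 relaxed summits each against the 52 of Ten-a. They are thus a poor measure of the count to be had at this length.

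Ten-m held 2 IDR and 11 relaxed summits within 5 kb. That is 1.60 IDR summits per 100 kb, against 4.45 on its arm 3L, and 8.81 relaxed summits per 100 kb, against 21.7. Of the long genes 137 had more IDR summits, 42 had as many and 127 had fewer. The 65 long genes within 20% of the length of Ten-m had a median of 3. Counting inside the gene alone, Ten-m had 0 IDR summits and 8 relaxed summits.

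**Figure D3:**
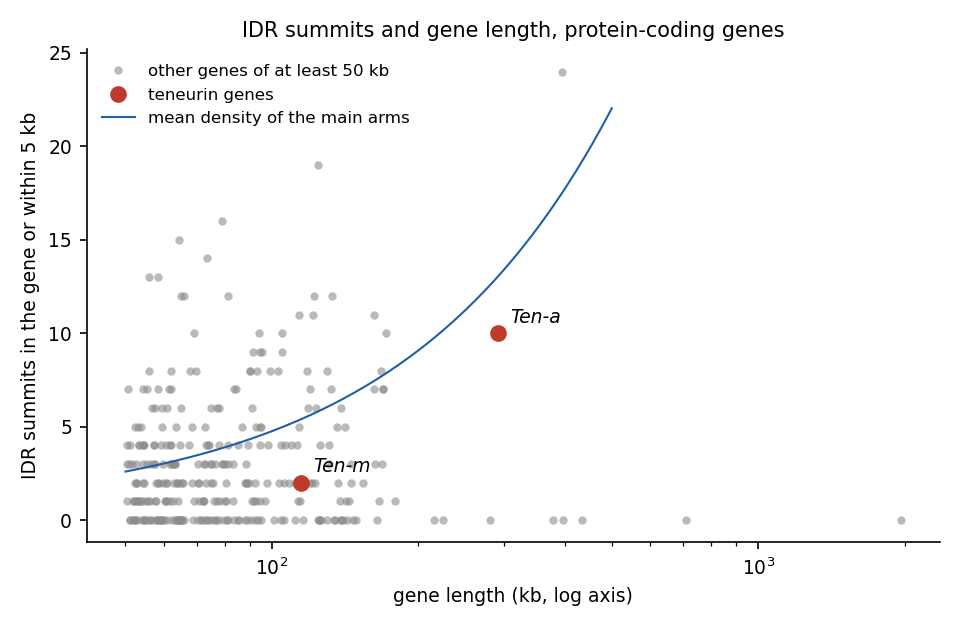
IDR summits in the gene or within 5 kb (y axis) against gene length (x axis, kb, log scale) for the 307 protein-coding genes of at least 50 kb, one point per gene; the line is the count that the mean density of the main arms gives at each length. Ten-a (10 summits) and Ten-m (2 summits) both lay below the line.

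Each teneurin gene had an IDR summit at 1 promoter. Of the 5 TSSs of Ten-a, only the one at X:12203798, 160.1 kb into the gene and used by 4 transcripts, had an IDR summit within 500 bp. Site 3 lay 11 bp downstream of it, in an untranslated exon. Its pooled signal was 188, and its signals in replicates 1, 2 and 3 were 57.5, 40.4 and 76.3. The 5′-most TSS had no relaxed summit nearer than 1058 bp, where the signal was 69.2. The TSS at X:12128286, which also serves 4 transcripts, had none nearer than 20305 bp. The last pair of TSSs, at X:12229923 and X:12230028, shared a relaxed summit of signal 44.6 at 48 and 153 bp. At Ten-m the promoter site had a pooled signal of 145 and signals of 45.0, 30.0 and 59.5 in replicates 1, 2 and 3. It also lay 617 bp upstream of the noncoding gene lncRNA:CR45962. Over all protein-coding genes 22.6% had an IDR summit within 500 bp of a TSS. Both teneurin promoter peaks lay in the lower part of the IDR list, at ranks 3839 and 5230 of 5786.

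Introns held the rest of the Ten-a summits. Intron 5 of 19 in the canonical transcript (chrX:12197256-12273934, 76.679 kb) contained sites 2 to 10 and 32 relaxed summits, and it also contains the last 3 TSSs. Of 109 canonical introns of at least 50 kb, 46.8% had an IDR summit and the median was 0. Most of the 58 introns without an IDR summit had no relaxed summit either. Introns with no peak of any kind thus lower that share and that median. Introns with more than the 9 of Ten-a were in CG1677 (18), kirre (14), sbb (13) and CG43658 (10). Its 11.7 IDR summits per 100 kb were exceeded by 6 of these introns. The sites followed each other at gaps of 1240 to 17019 bp, with a median of 5232.5 bp. From site 2 to site 10 the run of 9 covered 56.715 kb. Of all IDR summits, 12.2% begin a stretch of 56.715 kb with at least 9 summits. The mean density of the main arms gives 2.45 summits over that length.

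Site 2 (chrX:12202250-12202525) was the highest peak of Ten-a and lay 1388 bp upstream of the TSS at X:12203798, in the intron of the longer transcripts. Its pooled signal was 465, rank 984, and its signals in replicates 1, 2 and 3 were 113, 181 and 175. No other Ten-a site reached those values in any replicate. At 276 bp the peak was narrower than the usual 430 bp.

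Sites 4 to 7 stood 4383 to 12092 bp upstream of the TSS at X:12229923. Site 6 had the highest pooled signal of these, 311, with 76.7, 139 and 95.3 in replicates 1, 2 and 3. Site 5 reached 232, with 48.5, 105 and 71.2. Site 4 reached 224, with 57.7, 101 and 69.1. Site 6 was above site 5 and site 4 in every replicate, while sites 4 and 5 traded places. Site 7 had a pooled signal of 190 with 59.7, 53.7 and 57.6, so that it was above site 5 in replicate 1 and below it in replicates 2 and 3.

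Sites 8 to 10 lay past the last TSS, by 12531, 19064 and 29097 bp. Site 8, the narrowest peak at 175 bp, had a pooled signal of 328, rank 1795, with 66.7, 158 and 102 in replicates 1, 2 and 3. Site 9 had 200, with 42.6, 89.5 and 68.5. Site 10 had 136, with 31.8, 56.6 and 41.9. The 3 sites kept this order in every replicate. The summit of site 9 lay inside an annotated INE-1 element of 159 bp (chrX:12248981-12249139), a short mobile element frequent in the fly genome. Of all IDR summits 18, or 0.311%, lay in INE-1 elements, which cover 0.411% of the main arms.

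Site 1 was the only IDR summit outside intron 5. It lay 32022 bp past the 5′-most TSS, within the noncoding gene lncRNA:CR43960, which shares that TSS. It was also 2902 bp upstream of the start of moon, whose TSS lies inside Ten-a on the opposite strand; moon encodes a factor for transcription of piRNA clusters. Its pooled signal was 135, with 34.2, 43.0 and 50.5 in replicates 1, 2 and 3. Between sites 1 and 2 lay 126.69 kb with 11 relaxed summits and no IDR summit. The 76.089 kb after site 10 had 8 relaxed summits with a maximum of 90.9.

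Hem encodes a subunit of the WAVE regulatory complex, which drives branching of actin, and IleRS encodes the isoleucyl-tRNA synthetase. Their TSSs face away from each other at a distance of 470 bp. The summit between them (peak chr3L:22288327-22288665) lay 308 bp upstream of Hem and 162 bp upstream of IleRS. Its pooled signal of 874, rank 256, was the highest of the 12. In replicates 1, 2 and 3 it had 175, 386 and 311, above every other of the 12 sites in each. It entered the Ten-m region only through the margin of 5 kb.

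Inside Ten-m the 8 relaxed summits had signals of 38.4 to 60.3, all below the median of the relaxed list. The highest lay 801 bp downstream of the TSS, in exon 1, and the 72.459 kb next to the 3′ end had none. Of the 8 summits 1 lay in a relaxed peak of all 3 replicates, 2 in that of 2 replicates, 4 in that of 1 and 1 in none. The summit with all 3, at 3L:22407268, shared its peaks of replicates 2 and 3 with the neighbouring summit at 3L:22407062. The summits of those shared peaks lay at the neighbour, and only the replicate 1 peak had its summit at 3L:22407268.

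**Figure D4:**
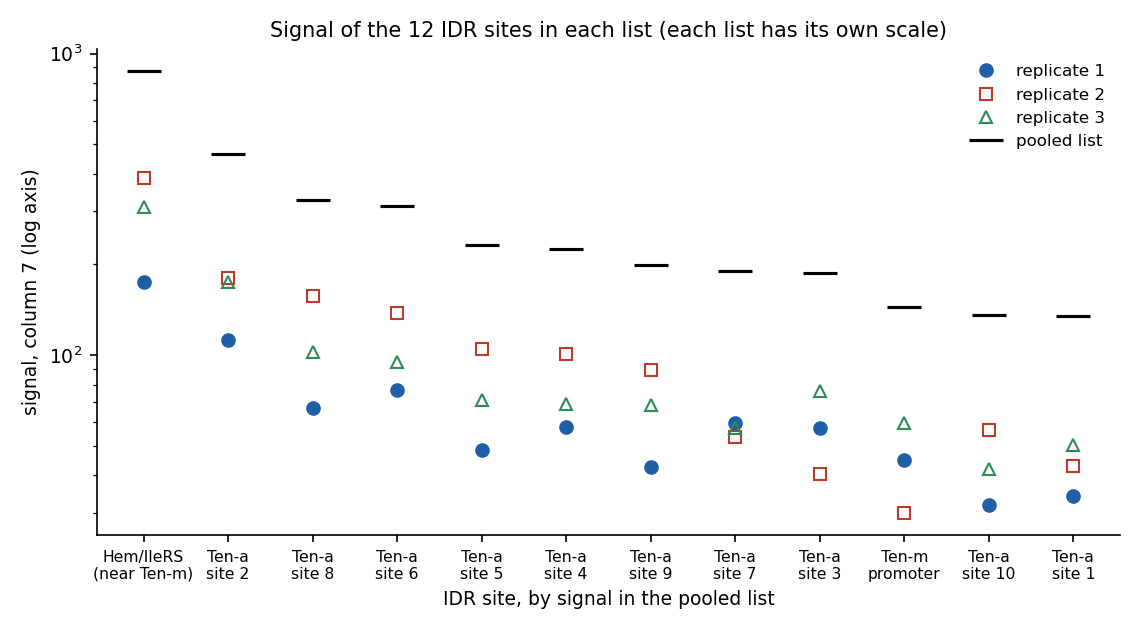
Signal (y axis, log scale) of the 12 IDR sites in the relaxed list of each replicate (symbols) and in the pooled list (bars), ordered by pooled signal (x axis); each list has its own scale. The Hem/IleRS site and Ten-a site 2 had the highest values in every replicate list, and sites further right changed places between replicates.

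The order of the 12 sites was partly repeated between replicates. The Hem/IleRS site was first and site 2 second in each. Of the 11 pairs of neighbours in the pooled order, 5 had the same order in all 3 replicates, 5 in 2 replicates and 1 in 1 replicate. The same order throughout was seen for Hem/IleRS over site 2, site 2 over site 8 and site 6 over site 5. It was also seen for site 4 over site 9 and for site 3 over the Ten-m promoter site. The other neighbours changed order between replicates, and no spread of the signals was estimated. Across the 12 sites the log2 signals of replicates 1 and 3 had a Pearson correlation of 0.962 (Spearman 0.860). Replicates 1 and 2 had 0.809 (0.727), and replicates 2 and 3 had 0.855 (0.769). These correlations run over sites chosen as peaks in all lists and are given as a description.

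All 12 IDR summits lay in a relaxed peak of each of the 3 replicates, as did 98.2% of all IDR summits. With a replicate summit asked for within 100 bp, 11 of the 12 had one in all 3. At site 5 the summits of replicates 1, 2 and 3 lay at −79, −108 and −114 bp from the pooled summit. The windows searched for words were centred on the pooled summit. With each replicate list reduced to its 5786 highest peaks, 8 of the 12 were found in all 3. Sites 1 and 3 and the Ten-m promoter site were then found in 2, and site 10 in 1. Of the relaxed summits below the IDR list, 14 of 42 at Ten-a and 1 of 9 at Ten-m lay in a peak of all 3 replicates, against 28.0% of all such summits. Those of Ten-a had signals of 39.0 to 130, median 53.1, and 4 of them were found in no replicate list. Those of Ten-m had 37.9 to 60.3, median 39.3. The nearest to the IDR list from below were summits of Ten-a at X:12082510 and X:12090445 (both 130) and X:12248255 (127). The nearest from above were sites 1 (135) and 10 (136).

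The other genes of cell recognition and neuronal wiring give the setting. Of a list of 50, which includes cadherins, Dscams, neuroligins, semaphorins and their receptors, 34 (68.0%) had an IDR summit in the gene or within 5 kb, against 53.4% of all protein-coding genes. The median length of the 50 was 39.0 kb, and the list was not matched to all genes by length. Without the margin of 5 kb 24 of the 50 had an IDR summit, and the share of all genes was not computed for that setting. Whether wiring genes as such have more summits was not tested. Of the 18 of at least 50 kb 17 had a summit, against 72.6% of all long genes. Long genes with no peak of any kind lower the latter share. Within 500 bp of a TSS 13 of the 50 (26.0%) had one, against 22.6% of all genes. No gene of the list had more IDR summits than Ten-a, which is also longer than every gene of the list. The nearest was Sema1a, an axon guidance semaphorin, with 8, and 23 of the 50 had at least the 2 of Ten-m. The highest peaks of the list were at the netrin receptor genes unc-5 (738, with 5 IDR summits) and fra (689, with 5) and at the immunoglobulin adhesion gene sdk (626, with 1). All 3 were above the highest Ten-a peak of 465 in the same pooled list. Per 100 kb, IDR summits numbered 13.2 at unc-5, 11.1 at fra, 5.72 at Sema1a and 1.38 at sdk, against 3.32 at Ten-a.

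Of 15 genes of the synapse and its cytoskeleton, 7 (46.7%) had an IDR summit, near the 53.4% of all genes, and 2 had one within 500 bp of a TSS. The highest were near gbb, a BMP ligand (1582), alpha-Spec, the alpha spectrin (1127), and Dys, the dystrophin gene (600). Of 9 pair-rule genes 3 (33.3%) had one and 0 had one within 500 bp of a TSS. The highest lay near the forkhead genes slp2 (1183) and slp1 (362) and the zinc finger gene odd (203). Neighbouring genes can share a summit, since their margins overlap.

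Genes of at least 50 kb with an IDR summit were ordered by the likeness of 4 values to those of each teneurin gene: the highest signal in the region in each replicate and the density of IDR summits, all on the log2 scale. Over 222 such genes the nearest to Ten-a were LRP1, a lipoprotein receptor gene, at a distance of 0.160, the nicotinic receptor gene nAChRalpha5 at 0.207, and the collagen gene Mp at 0.307. The median distance of the others was 1.66. The highest signals in replicates 1, 2 and 3 were 113, 198 and 165 at LRP1, 117, 194 and 158 at nAChRalpha5, and 96.4, 169 and 157 at Mp. These genes are much shorter, at 52.3 to 54.7 kb, and had 2 IDR summits each. The nearest to Ten-m were the nesprin gene Msp300 at 0.192, the splicing regulator gene mbl at 0.356 and the RNA-binding protein gene mub at 0.743, against a median of 2.76. For Ten-m the highest signal used was that of the Hem/IleRS site.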

How the data were processed

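The deposited files are peak lists from ChIP-seq of az2-GFP embryos, against a control alignment not used here, per the labels and file headers. They comprise relaxed lists (peaks plus background, as input for IDR) of 3 replicates and of their pooled reads, and 1 list thresholded by IDR by the authors. Column 7 is the signal as the authors deposited it, never negative and not rescaled. The deposited column 10 is an other kind of value, the offset of the summit from the peak start in bp. The peak caller and the IDR threshold are not given in the sources used here. Depth is unknown, and no counting interval was possible. Only the dm6 lists were used, since dm3 coordinates were not converted.

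Summits (peak start plus column 10) were joined with the Ensembl annotation BDGP6.54 (release 115) on the main arms in Python 3.11.15 with pandas 2.3.3 and numpy 2.4.6, and coordinates count from 1. Figures were drawn with matplotlib 3.10.9. A gene region was the gene with 5 kb on either side. A promoter summit lay within 500 bp of any TSS of the gene. A summit was found in a replicate where it lay in a relaxed peak of that replicate, so the same replicate peak could count for neighbouring summits. Bases came from the RefSeq genome of the same build, and words were matched on both strands within 100 bp of the summit. The spaced windows of the main arms stood every 5000 bp, and the windows within Ten-a adjoined each other. Counting and matching were tested on simulated data.

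The genes, lists and words were chosen with earlier results of these data known, so no tests were made. Named genes were the teneurin genes, genes holding an IDR summit of theirs or with a TSS within 5 kb of it, the 3 genes with the highest IDR peak in each list, and the 3 genes of at least 50 kb most like each teneurin gene by Euclidean distance over 4 log2 values. Sema1a, kirre and the genes of the introns with more summits were named after their values were seen. The symbol h was matched as hry. The 3 replicates form 1 group, and nothing in the labels pairs them across groups. The labels give no dates or batches of sequencing.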

Additional observations from a re-analysis of the deposited data

How the results depend on the processing

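Counts, densities and highest signals were recomputed under other regions, lists and windows. Of 59 recomputed values 38 stayed close, within a ratio of 1.5 of the main value, and 21 moved. Those numbers include values that could not change and values from lists on other scales, so they do not measure stability. The IDR list is the authors' list from all 3 replicates and could not be called again without 1 of them, so leaving out a replicate meant asking for a relaxed peak in both others. Since all 12 sites had one in every replicate, this could only give 10 IDR summits at Ten-a, 2 at Ten-m and 9 in intron 5, with 3.32 and 1.60 per 100 kb, and it says nothing about their stability. Of the wiring genes 33 to 34 had an IDR summit under that rule. Keeping only the 50% of IDR peaks with the highest signal left 3 summits at Ten-a, all 3 in intron 5, 1 at Ten-m and 21 wiring genes. Without the margin of 5 kb Ten-m had 0 IDR summits, or 0 per 100 kb, and 24 wiring genes had one. Asking for all 3 replicates left 24 relaxed summits at Ten-a and 3 at Ten-m. In the relaxed list the densities were 17.2 and 8.81 per 100 kb. With only the 5′-most TSS Ten-a had 0 promoter summits, and within 250 bp Ten-m had 0. The highest signals in the lists of replicates 1, 2 and 3 were 113, 181 and 175 at Ten-a and 175, 386 and 311 at Ten-m, on other scales than the pooled list. Matches of the 10 known motifs went from 9 pairs of site and motif to 4 within 50 bp and 21 within 200 bp of the summit. The word CAGTG was at 3 sites within 50 bp, and at 9 within 150 and 200 bp, windows chosen after seeing the data. Without summits in transposable elements, also chosen later, Ten-a kept 9. No paired analysis was possible because all replicates belong to 1 group. Depth is unknown, so a missing peak in Ten-m is not shown to be an absence of binding.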
